A study of Mus musculus with 12 samples.

Results

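The calcium/calmodulin-dependent protein kinases (CaM kinases) of the mouse cerebellum were described here from the transcripts of 8 genes: the CaMKII subunit genes Camk2a, Camk2b, Camk2d and Camk2g, the effector kinase genes Camk4 and Camk1d, and the genes of the upstream activating kinases, Camkk1 and Camkk2. The members were chosen by gene symbol, with earlier results of these data known, and all 8 were among the 18394 genes in the count table. All 8 were also among the 15467 genes that passed the filter on low counts. Transcripts were measured by mRNA sequencing of whole cerebella from 6 cKO mice and 6 WT mice. The cKO mice are labelled as knockouts for Crfr1, the type 1 receptor for corticotropin-releasing factor (gene symbol Crhr1), made with the driver deltaalpha6-Cre. That driver takes its name from a GABA-A receptor subunit, α6 (gene Gabra6), that is typical of cerebellar granule cells. The WT mice are labelled by that genotype alone. No group is labelled as carrying the driver without the knockout, so receptor loss, the driver and DNA linked to either cannot be told apart. The labels give no age, sex or litter, and replicate numbers only name libraries.

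CaM kinases turn a rise in cytosolic calcium into phosphorylation of other proteins once calcium-loaded calmodulin binds them. CaMKII assembles from several subunits into a ring-shaped holoenzyme that can stay active after the calcium signal has ended, and in Purkinje cells the α and β subunits take part in plasticity at the synapses made by granule cell axons. CaMKI and CaMKIV work in a cascade: the CaMK kinases (CaMKK) phosphorylate them, and CaMKIV, abundant in granule cell nuclei, phosphorylates the transcription factor CREB.

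Library totals ran from 32316716 to 58710874 counts in cKO and from 23803779 to 62104185 counts in WT, and each library held at least 2221 counts of every kinase gene. Crhr1 averaged 98.8 CPM (the count divided by the TMM-normalised library size, times 1e+06) in cKO and 97.6 CPM in WT (log2 fold change 0.02, SE 0.04, edgeR adjusted p = 0.889). Counts over the whole gene include parts that a conditional deletion leaves in place, so this value does not check the knockout. Gabra6 averaged 622.8 CPM in cKO and 812.6 CPM in WT. The library of cKO replicate 1 stood apart in a score of forebrain genes described below.

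Of the 8 kinase genes, 2 rose in cKO cerebella and none fell. Camkk2 rose 1.08-fold and Camk2b rose 1.08-fold. Among all tested genes 2.64% passed the same threshold (edgeR's quasi-likelihood F test, with the p adjusted by Benjamini-Hochberg below 0.05), 1.27% higher and 1.38% lower in cKO. The absence of lower kinase genes held for the unadjusted p as well, which was below 0.05 for 4 genes, all with positive differences. Among all tested genes 14.2% had an unadjusted p below 0.05, 7.16% higher and 7.08% lower in cKO. By level the kinase genes stood between percentiles 80.9 and 99.6 of the tested genes, so these shares come from genes of mostly lower level. DESeq2 likewise called 2 kinase genes higher and 0 lower. The log2 fold change was positive for 7 of the 8 genes and negative for 1, with a median of 0.07, against a median of -0.00027 over all tested genes. Because the tissue was bulk, fewer cells of a type and less RNA per cell cannot be told apart for any of these values.

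**Figure D1:**
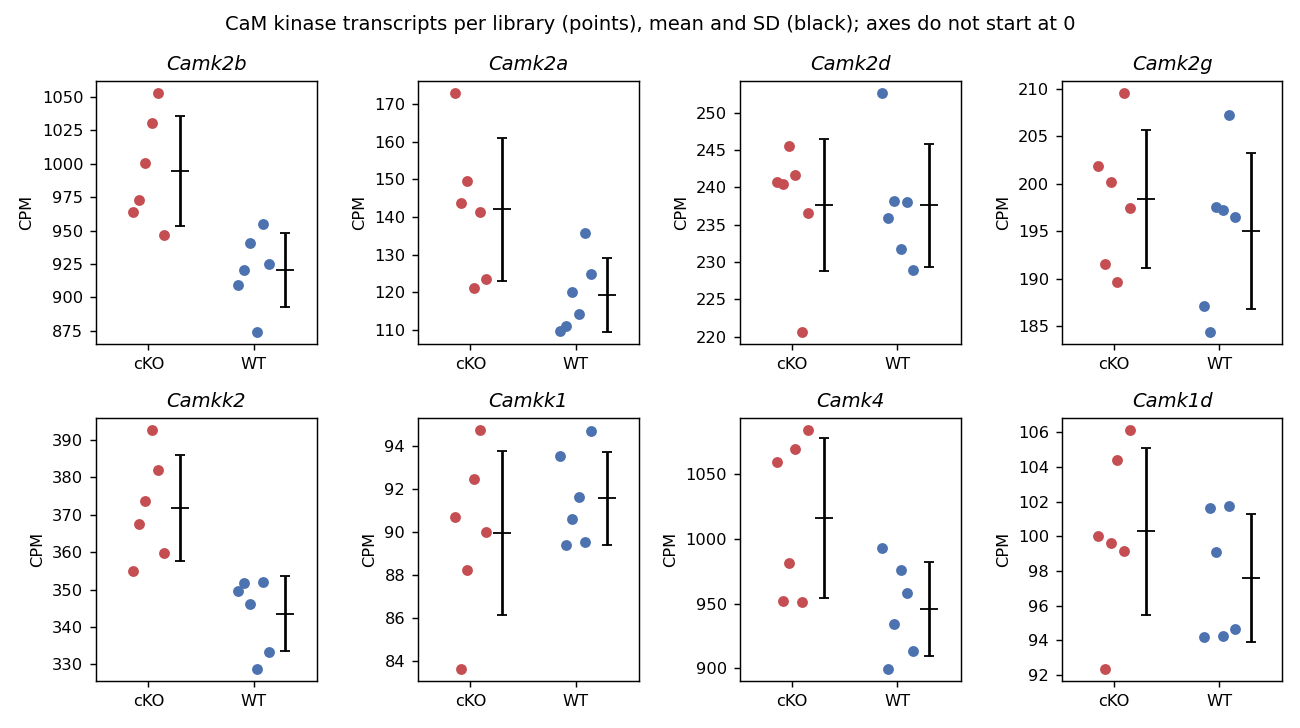
Level of each kinase gene in CPM (y axis, not starting at 0) in 6 cKO libraries (red, left) and 6 WT libraries (blue, right), with the mean and SD in black. The 6 cKO points lie above every WT point for Camkk2, whereas the genotypes overlap for the other 7 genes.

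The starts of the genes that rose are shown with the promoter of Camkk1, the other gene of the activating kinases, for comparison. The sequences are RefSeq windows of 300 bases (build GRCm38.p6), from 250 bases before the annotated start to 50 after it, 5′ to 3′ on the strand of the gene. Capitals mark the GC box GGGCGG, the CCAAT box CCAAT and the half-site TGACG of the cAMP response element, on either strand. The window of Camk2b is at chr11:6065699-6065998 (minus strand), that of Camkk2 at chr5:122779361-122779660 (minus strand) and that of Camkk1 at chr11:73018738-73019037 (plus strand). The Camk2b window lies wholly inside the gene span of the GENCODE annotation (5969644 to 6066362), so its RefSeq start is not the outermost one.
Camk2b: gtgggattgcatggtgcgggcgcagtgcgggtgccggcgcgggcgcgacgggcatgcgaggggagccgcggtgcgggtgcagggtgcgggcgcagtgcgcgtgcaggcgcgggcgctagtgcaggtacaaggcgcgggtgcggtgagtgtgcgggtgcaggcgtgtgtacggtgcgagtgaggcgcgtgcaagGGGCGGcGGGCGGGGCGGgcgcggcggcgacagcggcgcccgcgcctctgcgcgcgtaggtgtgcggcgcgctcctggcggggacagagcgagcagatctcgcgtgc
Camkk2: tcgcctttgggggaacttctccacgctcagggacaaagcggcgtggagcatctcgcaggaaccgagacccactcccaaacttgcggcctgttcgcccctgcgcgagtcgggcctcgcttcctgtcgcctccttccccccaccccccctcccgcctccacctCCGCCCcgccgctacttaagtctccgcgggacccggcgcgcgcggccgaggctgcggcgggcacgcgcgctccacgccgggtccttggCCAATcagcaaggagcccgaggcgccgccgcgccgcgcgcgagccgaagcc
Camkk1: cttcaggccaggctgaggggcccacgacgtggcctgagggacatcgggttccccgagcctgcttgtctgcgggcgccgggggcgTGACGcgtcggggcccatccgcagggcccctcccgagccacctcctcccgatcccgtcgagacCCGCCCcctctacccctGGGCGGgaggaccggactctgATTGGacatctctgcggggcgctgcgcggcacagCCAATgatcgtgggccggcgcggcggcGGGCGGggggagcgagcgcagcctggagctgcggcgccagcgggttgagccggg
Entries were found for 5 of the 8 genes. The Camk2b window held 3 GC boxes, 2 of which share a base, and neither of the other motifs. The Camkk2 window held 1 GC box and 1 CCAAT box, which begins at the last base before the start. In the Camkk1 window there were 3 GC boxes, 2 CCAAT boxes and 1 half-site. GC boxes occurred in 35.7% of 32851 RefSeq promoter windows, CCAAT boxes in 37.4% and half-sites in 20.8%. The GC content was 77.3% for Camk2b, 73.3% for Camkk2 and 75.3% for Camkk1, against a median of 52.7% over all windows. These matches describe letters in the windows, and none of the measurements here tests binding.

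Camkk2, which encodes the CaMK kinase that also activates the energy sensor AMPK, had the clearest separation. It lies on chromosome 5 (122731170 to 122779409, minus strand, GRCm38), with no other annotated gene overlapping it. In cKO it measured 354.9 CPM at the lowest, 370.7 at the median and 392.7 at the highest, against 328.8, 347.8 and 352.0 CPM in WT. All 6 cKO libraries were above all 6 WT libraries, an arrangement found for 0.95% of all tested genes, and for 2.09% when the reverse order is counted too. The means were 371.8 ± 14.1 CPM in cKO and 343.6 ± 10.1 CPM in WT (SD, n = 6 each), a log2 difference of 0.11 with SE 0.03 and a 95% interval of 0.06 to 0.17 (edgeR adjusted p = 0.0283). An exact two-sided permutation test of the log2 level gave an unadjusted p = 0.00216, the smallest that 6 against 6 libraries allow. That value follows from the separation itself and is no further result. The call was lost without cKO replicate 3 or 4 or WT replicate 3, 4 or 6 (adjusted p = 0.0531 to 0.0716), with log2 fold changes of at least 0.099 in every such fit.

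Camkk1, the other CaMK kinase gene, differed by less than the spread between libraries. Its lowest, median and highest levels were 83.6, 90.4 and 94.8 CPM in cKO, against 89.4, 91.1 and 94.7 CPM in WT. The ranges overlapped, with the WT range inside that of cKO. This left a log2 fold change of -0.03 with SE 0.03 and a 95% interval of -0.09 to 0.03 (edgeR adjusted p = 0.756). Per kb of exon, Camkk2 stood at 1.41 ± 0.0629 times the level of Camkk1 in cKO and at 1.28 ± 0.0595 times in WT (SD, n = 6 each). The size of this ratio depends on the length used, and per kb of coding sequence it was 2.97 ± 0.132 in cKO and 2.70 ± 0.125 in WT. By exon length the lowest ratio in cKO, 1.336, lay just below the highest in WT, 1.343, so the genotypes overlapped only at that edge. The ratio follows from the rise of Camkk2 and is no separate result.

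Camk2b encodes the β subunit of CaMKII, which ties the holoenzyme to actin filaments and was the most abundant CaMKII transcript in these cerebella. It lies on chromosome 11 (5969644 to 6066362, minus strand, GRCm38), 36.2 Mb from Gabra6, and no annotated gene overlaps it. Camkk1, which was not called, lies on the same chromosome 30.7 Mb from Gabra6, and Crhr1 lies there as well. The lowest, median and highest levels of Camk2b were 947.0, 986.9 and 1053 CPM in cKO, against 873.8, 922.5 and 954.5 CPM in WT. A single WT library, replicate 5, exceeded the lowest cKO library, replicate 6, and 5 of 6 cKO libraries lay above the whole WT range. The means were 994.7 ± 41.1 CPM in cKO and 920.4 ± 27.9 CPM in WT (SD, n = 6 each). The genotypes differed by 0.11 on the log2 scale, with SE 0.03 and a 95% interval of 0.05 to 0.17 (edgeR adjusted p = 0.0355, unadjusted exact permutation p = 0.00433). The call depended on single libraries. It ended without cKO replicate 3, 4 or 5 and without WT replicate 1, 2, 4 or 6 (adjusted p = 0.0570 to 0.0864), while the log2 fold change over all 12 fits that left out 1 library stayed between 0.095 and 0.126. With 3 surrogate variables in the fit, neither Camk2b (0.083, adjusted p = 0.152) nor Camkk2 (0.119, adjusted p = 0.0635) was called, and with an oligodendrocyte marker score as covariate both calls ended too (adjusted p = 0.0751 for Camk2b and 0.0603 for Camkk2).

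The authors' deposited table gave log2 fold changes of 0.106 for Camkk2 (adjusted p = 0.0022) and 0.104 for Camk2b (adjusted p = 0.00425). It gave 0.133 for Camk2a (adjusted p = 0.118) and 0.091 for Camk4 (adjusted p = 0.101), again without a call. The direction of that table is not stated, and was read from 400 genes called in both analyses, all 400 with the same sign when positive means higher in cKO. Whether the fold changes in the authors' deposited table were shrunken is not stated, and DESeq2 run here on the counts gave 0.25 for Camk2a (SE 0.09, adjusted p = 0.116). The deposited SE of Camk2a was 0.0487, and no gene in that table had an SE above 0.0488. Fold changes and errors there were thus smaller for Camk2a at a near-equal adjusted p, so their sizes cannot be set directly beside those given here.

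**Figure D2:**
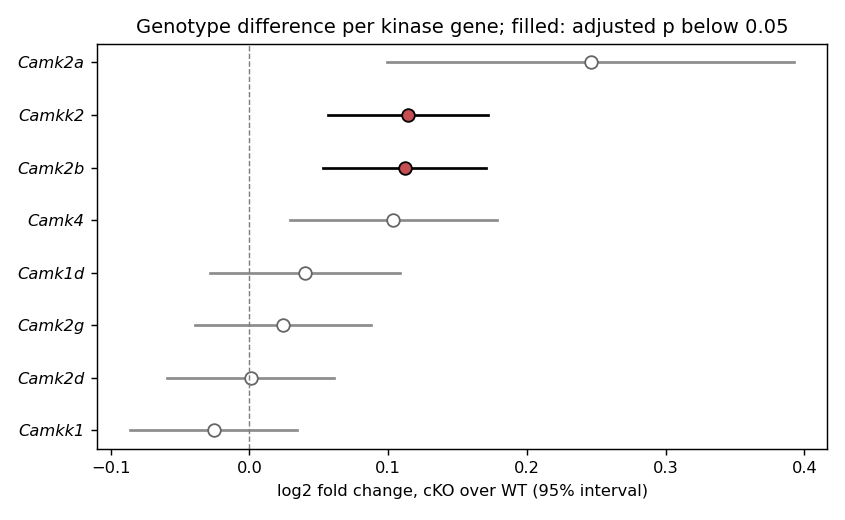
Log2 fold change of each kinase gene, cKO over WT (x axis), with 95% intervals from the edgeR fit over all genes. Filled points mark Camkk2 and Camk2b, the genes with an adjusted p below 0.05, and the widest interval belongs to Camk2a.

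Camk2a encodes the α subunit of CaMKII, best known from forebrain synapses and also present in Purkinje cells, and lies on chromosome 18, where the genes of 2 microRNAs on the same strand, Mir7220 and Mir6982, overlap it. It had the highest fold change among the kinase genes and the widest spread, and it did not pass the test. In cKO it measured 121.3 CPM at the lowest, 142.6 at the median and 172.9 at the highest, against 109.7, 117.2 and 135.8 CPM in WT. The highest value belonged to cKO replicate 1, and 4 cKO libraries lay above the whole WT range. The coefficient of variation was 13.3% in cKO and 8.27% in WT, while for the other 7 genes it was between 3.66% and 6.05% in cKO and between 2.36% and 4.23% in WT. On the log2 scale cKO exceeded WT by 0.25, with SE 0.07 and a 95% interval of 0.10 to 0.39 (edgeR adjusted p = 0.0725, unadjusted exact permutation p = 0.0216). It passed without cKO replicate 4 or 6 or WT replicate 5 (adjusted p = 0.0252 to 0.0346) and did not pass in the other 9 such fits. With surrogate variables the difference was at -0.00017 (edgeR adjusted p = 0.999).

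Camk2a levels moved from library to library with genes of the forebrain. A list of 23 forebrain markers, 22 of them in the count table and 17 of them tested, was summarised as a score, the mean of the centred log2 CPM of the tested markers. The score ran from -0.20 to 0.76 in cKO and from -0.50 to 0.29 in WT, with means of 0.18 ± 0.33 and -0.18 ± 0.29 (SD, n = 6 each, two-sided exact permutation p = 0.0801). Across the 12 libraries the log2 level of Camk2a followed it with a Pearson r of 0.936 (permutation p = 6e-05, adjusted over 8 genes p = 0.00048) and a Spearman rho of 0.853 (permutation p = 0.00079, adjusted p = 0.00632). Without cKO replicate 1 and WT replicate 1, the libraries farthest from the median score, r was 0.854. Within genotypes r was 0.964 over the 6 cKO libraries (exact permutation p = 0.00417) and 0.863 over the 6 WT libraries (exact permutation p = 0.0306).

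The summed level of the same markers ran from 99.1 to 163.9 CPM in cKO and from 89.8 to 134.2 CPM in WT. The largest part of that sum was Cux2, which was not called and averaged 50.2 CPM in cKO and 52.4 CPM in WT. Of the 17 tested, 2 rose in cKO, among them Ddn, whose messenger RNA is found in forebrain dendrites, and none fell. Among all tested genes 1.27% were called higher. The unadjusted p was below 0.05 for 6 of the 17, of which 1 was lower, against 14.2% of all tested genes. The log2 fold change was positive for 12 of the 17 and negative for 5, so the markers did not move as one. Among the negative ones were Rgs9 (-0.28), Drd1 (-0.26) and Adora2a (-0.10), none of them called. The call of Ddn ended without WT replicate 1, 2, 3, 4 or 6 (edgeR adjusted p = 0.0515 to 0.0815). Ddn reached 12.1 CPM in cKO replicate 1 and averaged 4.81 CPM in cKO and 1.45 CPM in WT. None of the 22 listed markers was at 0 in all libraries, and 3, among them Emx1 and Fezf2, regulators of the developing forebrain, were at 0 in some. With the score as a covariate the log2 fold change of Camk2a was 0.076 (SE 0.040, adjusted p = 0.496). Without the 4 libraries highest in the score (cKO replicates 1, 2 and 3 and WT replicate 5), a choice made after the data were seen, it was 0.15 (SE 0.05, adjusted p = 0.292).

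For the genes that rose, the correlation with the score did not pass. Pearson r with the score was 0.184 for Camkk2 and 0.359 for Camk2b (permutation p = 0.568 and 0.251, adjusted over 8 genes p = 0.758 and 0.512), with Spearman rho of 0.392 and 0.552 (permutation p = 0.209 and 0.0662, adjusted p = 0.335 and 0.177). Within cKO the sign was negative for both (r of -0.687 and -0.376, exact permutation p = 0.122 and 0.497). With the score as a covariate Camkk2 kept its call (log2 fold change 0.14, SE 0.03, adjusted p = 0.0299). Camk2b had a log2 fold change of 0.12 in that fit (SE 0.03, adjusted p = 0.114) and was not called. Without the 4 libraries named above, neither was called, with log2 fold changes of 0.146 for Camkk2 (SE 0.04, adjusted p = 0.0710) and 0.145 for Camk2b (SE 0.03, adjusted p = 0.0693).

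**Figure D3:**
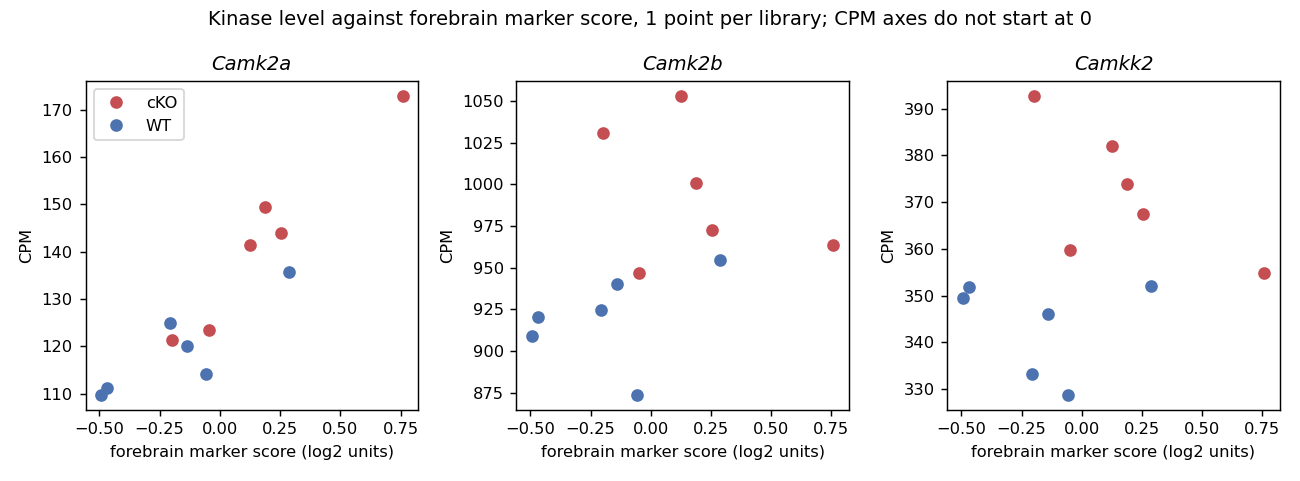
Level in CPM (y axis, not starting at 0) of Camk2a, Camk2b and Camkk2 against the forebrain marker score in log2 units (x axis), 1 point per library, cKO in red and WT in blue. Camk2a climbs with the score in both genotypes, with cKO replicate 1 at the top right. For Camkk2 every cKO point lies above every WT point, an order that holds whatever the score. No cKO library scored below -0.20 and no WT library above 0.29.

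The remaining CaMKII subunit genes did not pass the test. Camk2g, the gene of the γ subunit, measured 189.7, 198.8 and 209.6 CPM in cKO and 184.4, 196.9 and 207.2 CPM in WT (lowest, median and highest). The genotypes overlapped over most of their range, and the log2 difference was 0.02 with SE 0.03 and a 95% interval of -0.04 to 0.09 (edgeR adjusted p = 0.791). Its level followed the forebrain score by rank (Spearman rho 0.748, permutation p = 0.00732, adjusted p = 0.0293), while the Pearson r of 0.678 did not pass (permutation p = 0.0146, adjusted p = 0.0584), and without the 2 farthest libraries r was 0.686. Within genotypes r was 0.381 in cKO (exact permutation p = 0.465) and 0.972 in WT (exact permutation p = 0.00833). Camk2d, the gene of the δ subunit, best known from heart muscle, measured 220.6, 240.7 and 245.6 CPM in cKO and 229.0, 237.0 and 252.7 CPM in WT. The means of Camk2d, 237.6 CPM in either genotype, left a log2 fold change of 0.00078 with a 95% interval of -0.06 to 0.06 (edgeR adjusted p = 0.996).

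Per kb of annotated exon, Camk2b made up most of the CaMKII transcripts in every library. Its share of the summed CaMKII level was 64.3 ± 1.61% in cKO and 63.9 ± 0.80% in WT (SD, n = 6 each). Camk2g followed with 18.3 ± 0.54% in cKO and 19.3 ± 0.58% in WT, then Camk2a with 11.2 ± 1.39% and 10.1 ± 0.56%, and Camk2d with 6.24 ± 0.35% and 6.70 ± 0.32%, in the same order of genotypes. The summed CaMKII level ran from 161.7 to 176.9 CPM per kb in cKO and from 152.2 to 165.8 CPM per kb in WT. The order below Camk2b depended on the length used. Camk2d has 22.5 kb of annotated exon but 1.80 kb of coding sequence, and by coding length the shares over the 12 libraries were 60.7% for Camk2b, 17.1% for Camk2d, 12.8% for Camk2g and 9.40% for Camk2a. No test was made of these shares, which are not independent of each other or of the gene levels.

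**Figure D4:**
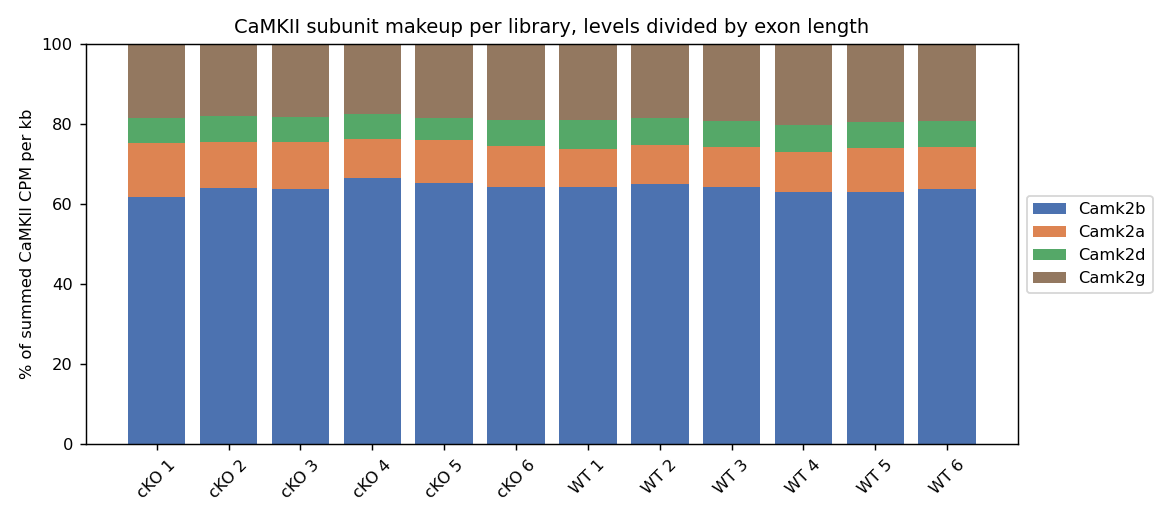
Share of Camk2b, Camk2a, Camk2d and Camk2g in the summed CaMKII level (y axis, percent, levels in CPM per kb of exon) in each of the 6 cKO libraries (left) and 6 WT libraries (right). Camk2b fills between 61.8% and 66.6% of the bar in cKO and between 62.9% and 65.0% in WT.

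Camk4, the nuclear kinase gene of granule cells, also on chromosome 18, had the highest level of the 8 genes. Its levels were 951.5, 1020 and 1084 CPM in cKO and 899.6, 946.3 and 993.1 CPM in WT (lowest, median and highest). In cKO, replicates 1, 4 and 6 lay above the WT range and the other 3 within it. Its log2 fold change of 0.10 had SE 0.04 and a 95% interval of 0.03 to 0.18 (edgeR adjusted p = 0.156, unadjusted exact permutation p = 0.0498). That is close in size to the values of Camkk2 and Camk2b, with a wider error. The gene did not pass in any of the 12 fits that left out 1 library, and it was called with surrogate variables (log2 fold change 0.17, edgeR adjusted p = 0.0281). Camk1d, a CaMKI gene that CaMKK activates in the cytoplasm, measured 92.4, 99.8 and 106.2 CPM in cKO and 94.2, 96.9 and 101.8 CPM in WT. Its genotypes overlapped, with a log2 difference of 0.04, SE 0.03 and a 95% interval of -0.03 to 0.11 (edgeR adjusted p = 0.637).

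Among the 8 genes, Camk4 stood at 311.8 ± 18.9 CPM per kb of exon in cKO and 290.2 ± 11.1 in WT, and Camk2b at 109.0 ± 4.50 and 100.9 ± 3.06. Camkk2 followed at 34.0 ± 1.29 in cKO and 31.5 ± 0.92 in WT, and Camk2g at 31.0 ± 1.13 and 30.5 ± 1.29, and in WT the means of Camkk2 and Camk2g differ by about 1 SD. Camkk1 came next with 24.1 ± 1.02 in cKO and 24.6 ± 0.58 in WT, then Camk2a with 19.0 ± 2.53 and 15.98 ± 1.32 and Camk1d with 13.5 ± 0.65 and 13.1 ± 0.50. Camk2d was lowest by exon length, at 10.6 ± 0.39 in cKO and 10.6 ± 0.37 in WT (all SD, n = 6 each). By coding length Camk2d came next after Camkk2, at 132.4 ± 4.91 CPM per kb in cKO and 132.4 ± 4.58 in WT, while Camk4 and Camk2b kept the first places and Camkk2 the third. The order of the others also held only by exon length. By coding length Camk2g stood at 100.4 in cKO and 98.6 in WT, Camk1d at 82.0 and 79.8, Camk2a at 79.4 and 66.7, and Camkk1 was lowest at 59.4 in cKO and 60.4 in WT.

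Genes whose pattern over the 12 libraries was most like that of a kinase gene were found by the root mean square difference of centred log2 CPM, among 10347 genes with at least 10 CPM. For Camk2b the 3 closest included Galnt9, a glycosyltransferase gene (0.016), and St8sia5, a sialyltransferase gene (0.026), where the median gene differed by 0.093. St8sia5 averaged 167.6 CPM in cKO and 153.0 CPM in WT (log2 fold change 0.13, edgeR adjusted p = 0.00932). For Camk4 they were the sodium channel gene Scn2a1 (0.034), the adhesion gene Chl1 (0.039) and the sodium-calcium exchanger gene Slc8a1 (0.043). For Camk2a the closest were Sorcs2 (0.085), Nsg2 (0.090) and Acvrl1 (0.095), where the median gene differed by 0.199. These genes were picked for their likeness, so their own differences between genotypes are descriptions.

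Other genes of the calmodulin pathway were mostly without a call, where 2.64% of all tested genes were called. Of the 8 calmodulin and calmodulin buffer genes tested, 1 rose and 1 fell. Gap43, a growth cone protein that binds calmodulin, fell by 8.35%. Gap43 measured 125.9 to 142.9 CPM in cKO and 140.2 to 152.6 CPM in WT (log2 fold change -0.13, SE 0.03, edgeR adjusted p = 0.0337). The call of Gap43 ended without cKO replicate 1, 2 or 3 or WT replicate 2, 3 or 5 (adjusted p = 0.0549 to 0.101). Of 15 other kinases of the CaM kinase family or bound by calmodulin, Dclk1, a doublecortin-like kinase of the family, fell by 10.6%. Dclk1 measured 427.4 to 472.1 CPM in cKO, below all WT libraries at 487.1 to 524.4 CPM, an order found for 1.14% of tested genes (log2 fold change -0.16, SE 0.03, edgeR adjusted p = 0.0022), and kept its call without any 1 of the 12 libraries, though not with surrogate variables (adjusted p = 0.0722).

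Lists of related and downstream genes gave few calls, and at 2.64% over all tested genes lists of this size hold few in any case. Among 14 genes of the CREB and MEF2 branch served by CaMKIV, Hdac9, a class IIa deacetylase gene, rose 1.13-fold, with 18.6 to 21.4 CPM in cKO and 16.9 to 19.0 CPM in WT (log2 fold change 0.18, SE 0.04, edgeR adjusted p = 0.0347). Its call ended without cKO replicate 1, 2, 3 or 6 or WT replicate 1, 2, 3 or 6 (adjusted p = 0.0552 to 0.108). The calls of Hdac9 and Gap43 both ended with surrogate variables, with the forebrain score as covariate and without the 4 libraries highest in that score (highest edgeR adjusted p = 0.327 for Hdac9 and 0.528 for Gap43). edgeR called none of the 9 inhibitor and phosphatase genes or the 8 calcineurin genes. Nor did it call any of the 21 synaptic partners and substrates of CaMKII or the 11 genes of the CaMKK-AMPK branch. In these 4 lists the unadjusted p was below 0.05 for 0, 3, 1 and 1 genes, where 14.2% of all tested genes had such a p. DESeq2 and limma voom also called 0 in each. The closest to a call were Ppp3ca, a calcineurin catalytic subunit (log2 fold change 0.07, edgeR adjusted p = 0.152), and Kalrn, an exchange factor of dendritic spines (log2 fold change 0.10, edgeR adjusted p = 0.222). The median log2 fold changes of the 7 pathway lists lay between -0.019 and 0.023, against 0.07 for the 8 kinase genes. Medians of about that size or larger occurred in other lists as well. They were 0.072 for microglia markers, 0.065 for activity-regulated genes, -0.087 for interneuron markers and 0.24 for forebrain markers. The kinase genes were also chosen with earlier results of these data known.

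Markers of the cell types that hold these kinases were mixed. Of 15 granule cell markers, 2 rose and 4 fell in cKO, where 1.27% of all tested genes were called higher and 1.38% lower. Gabra6, the gene that the driver is named after, was among the 4 (log2 fold change -0.38, SE 0.04, edgeR adjusted p = 1.45e-05). The unadjusted p was below 0.05 for 9 of the 15, of which 6 were lower, against 14.2% of all tested genes. The summed level of the granule cell markers ran from 8333 to 9012 CPM in cKO and from 8666 to 9057 CPM in WT. Of 12 Purkinje cell markers edgeR called none (2 had an unadjusted p below 0.05, and DESeq2 called 0), with sums of 8652 to 9748 CPM in cKO and 9255 to 9581 CPM in WT. Of 12 interneuron markers, 10 had negative log2 fold changes and 1, Lgi2, fell. The unadjusted p was below 0.05 for 6 of them, all lower, against 7.08% of all tested genes in that direction. Their sums ran from 1196 to 1329 CPM in cKO and from 1308 to 1383 CPM in WT. Among 13 activity-regulated genes, 2 rose, where 1.27% of all tested genes were called higher. They were Arc, with 33.5 CPM in cKO and 24.7 CPM in WT, and Npas4, with 6.96 CPM in cKO and 3.96 CPM in WT. All 10 microglia markers had positive log2 fold changes and 2, Csf1r and Cx3cr1, were called, against 1.27% of all tested genes called higher. The microglia markers had sums of 170.8 to 199.2 CPM in cKO and 163.4 to 177.0 CPM in WT. The call of Csf1r ended without cKO replicate 1, 2 or 3 or WT replicate 1, 3, 4 or 5 (edgeR adjusted p = 0.0574 to 0.108), and that of Cx3cr1 without cKO replicate 3 or WT replicate 1, 2, 3, 5 or 6 (edgeR adjusted p = 0.0548 to 0.0929). Both also ended with surrogate variables, with the forebrain score as covariate and without the 4 libraries highest in it (highest edgeR adjusted p = 0.616 for Csf1r and 0.473 for Cx3cr1). In the astrocyte, oligodendrocyte, vascular, choroid plexus and midbrain lists edgeR and DESeq2 called 0 genes, with an unadjusted p below 0.05 for 3, 2, 0, 0 and 0. The part of these markers in the kinase values was not tested beyond the fits given here.

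**Figure D5:**
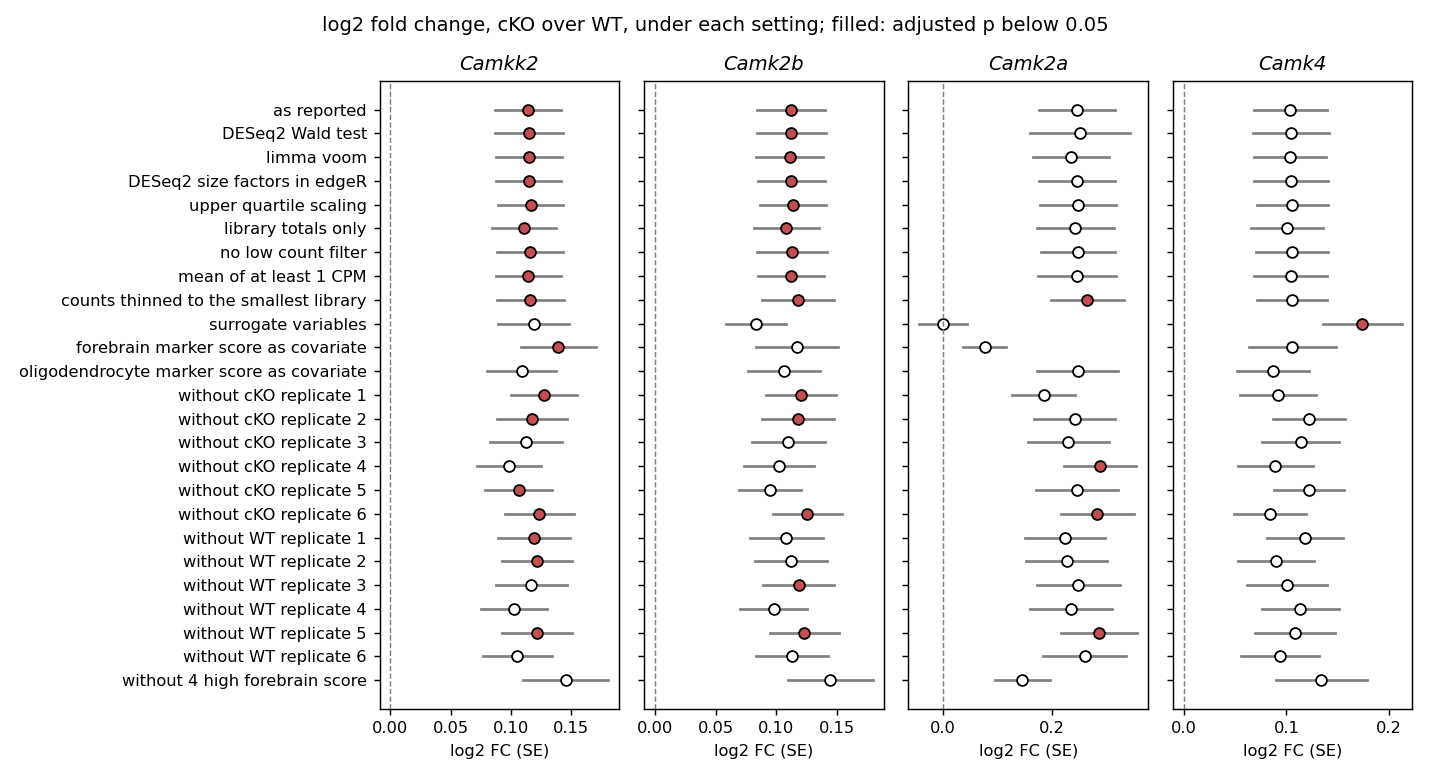
Log2 fold change (x axis, cKO over WT) of Camkk2, Camk2b, Camk2a and Camk4 with SE bars under each processing setting (rows), filled where the adjusted p was below 0.05. Camkk2 and Camk2b stay positive in every row while their calls come and go, and Camk2a approaches 0 with surrogate variables.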

How the data were processed

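Cerebellar mRNA of 6 cKO and 6 WT mice was sequenced with a stranded kit on shared lanes, per the labels' protocols. The authors deposited raw counts per gene symbol for 18394 genes and a DESeq2 comparison with a mean count signal, log2 fold changes, a test score and p-values, per the file headers. STAR, DESeq2 and mm10 are named in the submitters' processing notes. For the counting tool, strand setting and annotation, the sources used here name none. No sample column was left unmatched, and all 12 count columns matched samples by identifier.

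Counts were fitted in R 4.3.3 with edgeR 4.0.16 (filterByExpr, TMM, glmQLFit, glmQLFTest), with no covariate, over 15467 genes, and p-values were adjusted by Benjamini-Hochberg over all of them. SE and intervals came from the test statistic. Replicate pairs differed beyond counting noise (chi-square per degree of freedom at least 2.68), and p-values measure the spread between these libraries. The gene test was checked on simulated counts. Exon lengths and positions came from GENCODE M21 (GRCm38, the mm10 assembly), and promoters from RefSeq (GRCm38.p6).

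The members and gene lists were chosen with earlier results of these data known. Named genes were all members, Crhr1, Gabra6, called genes of the pathway lists or otherwise those with the smallest p, up to 4 called genes per marker list, and the 3 nearest patterns of Camk2a, Camk2b and Camk4. A few genes chosen this way are not reported here. Alternatives were DESeq2 1.42.0, limma voom 3.58.1, other scalings and filters, thinned counts, 3 surrogate variables (sva 3.50.0), marker scores as covariates and leaving out libraries.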

Additional observations from a re-analysis of the deposited data

Results flagged for a closer look

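Camk2d in cKO replicate 5 measured 220.6 CPM, while the other 5 cKO libraries lay between 236.6 and 245.6 CPM. Its gap to the nearest library was 0.639 of the whole range of the group, above the 95% critical value of Dixon's test for 6 samples. Chance flags about 1 in 20 groups, and 16 groups were examined here. Without that library the log2 fold change of Camk2d was 0.021 and it was not called.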

How the results depend on the processing

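Camkk2 and Camk2b kept positive log2 fold changes under all 12 fits that left out 1 library and all 12 other settings. Camkk2 was called in 9 of those 12 other settings and Camk2b in 8. Over all 12, called or not, the log2 fold change ran from 0.109 to 0.146 for Camkk2 and from 0.083 to 0.145 for Camk2b. The calls ended with surrogate variables (Camkk2 0.119, adjusted p = 0.0635; Camk2b 0.083, adjusted p = 0.152), with an oligodendrocyte marker score (0.109 and 0.107, adjusted p = 0.0603 and 0.0751), when the 4 libraries with the top forebrain scores were dropped (0.146 and 0.145) and, for Camk2b, with the forebrain score as covariate (0.117). Camk2a was called with thinned counts (0.265, adjusted p = 0.039) and was at -0.00017 with surrogate variables, which also put Camk2g at -0.018 and called Camk4 (0.174, adjusted p = 0.0281). Camk2g was at -0.019 with the forebrain score. Camk2d turned negative with library totals only (-0.00250), the oligodendrocyte score (-0.0054), without the 4 libraries (-0.027) and in 7 fits without 1 library, and Camkk1 was at 0.0060 without the 4 libraries. The cause was not tested. Leaving out 1 library gave log2 fold changes of 0.099 to 0.127 for Camkk2, 0.095 to 0.126 for Camk2b, 0.185 to 0.289 for Camk2a and -0.0097 to 0.021 for Camk2d.

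The kinase genes called numbered 1 with surrogate variables or the forebrain score, 0 with the oligodendrocyte score, 0 without the 4 libraries, and 0 to 3 when 1 library was left out. Over all genes the 409 calls (196 higher, 213 lower) became 189 (91 and 98) with surrogate variables, 223 (117 and 106) with the forebrain score and 157 (89 and 68) without the 4 libraries, where fewer samples were fitted. They ran from 272 (without WT replicate 3) to 459 without 1 library, with 134 to 214 higher and 138 to 248 lower. Pathway and activity-regulated genes called numbered 6, against 1, 3 and 3 in those settings and 3 to 7 without 1 library. Marker genes called numbered 11, against 6, 4 and 4, and 4 to 12 without 1 library. By coding length the mean CaMKII shares were 60.7% (Camk2b), 17.1% (Camk2d), 12.8% (Camk2g) and 9.40% (Camk2a), and without 1 library, by exon length, they stayed within 63.9 to 64.3%, 6.39 to 6.55%, 18.7 to 18.9% and 10.4 to 10.8%, in the same order of genes. For the other named genes, 687 of the values kept direction and side of the threshold, 94 lost a call, 8 gained one and 2 turned sign, both for Nsg2 (-0.027 with surrogate variables and -0.0036 with the forebrain score). No scaling moved the median of all genes by over 0.1. No paired analysis was possible because the labels give no litter or other pairing of the mice. Each kinase gene had at least 2221 counts per library.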
